A study of Mus musculus with 4 samples.

Results

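Genes of the TGF-beta and BMP signalling system were examined in mouse embryonic fibroblasts that lack Mll1 (Mll1-/-), set against wild-type fibroblasts. The members were taken by gene symbol. They are the genes named Bmp, Bmpr, Gdf, Tgfb, Tgfbr, Ltbp, Smad or Grem with a number, together with the inhibin and activin subunits, 4 activin receptors, noggin, chordin, follistatin and the Id genes. This gave 55 of the 19087 genes that a feature of the array names singly, and 48 of them had a value on all 4 arrays, as had 14222 genes in all. Such fibroblasts are cultured from the connective tissue of mouse embryos, and Mll1, now Kmt2a, encodes a histone H3 lysine 4 methyltransferase.

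The first group is Mll1-/- fibroblasts and the second is wild-type (wt) fibroblasts, both described as cell lines and grown in serum-containing medium. Neither strain, age nor how the allele was made is given in the sources used here, and genotype and cell line cannot be told apart. Each of the 4 two-colour arrays held RNA of both. The dye of the Mll1-/- RNA was Cy5 on arrays 1 and 3, and it was Cy3 on the other two. All values are log2 ratios of the 2 channels, so no level of a gene in either genotype can be read from them, and fewer cells making a transcript cannot be told apart from less transcript per cell.

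The ratios most likely run Mll1-/- over wild type, since the sample titles put mll before wt and since Kmt2a is lower in that direction. In the opposite case, higher and lower would have to be exchanged throughout. Kmt2a stood at −1.61, −1.58, −1.01 and −0.78 on arrays 1 to 4 (2.37-fold, limma adjusted p = 0.0138), and since the direction was read partly from this, it is no separate check. The log base was taken to be 2 because of how far the values range. Nothing says that the arrays came from separate cultures, and the spread behind the p-values is that between arrays, possibly a technical one. Of the fibroblast markers, 9 of 10 were tested, of which 4 rose (S100a4 by 1.04 ± 0.29, Vim by 0.57 ± 0.13, Col1a1 and Twist1) and 4 fell (Dcn, Pdgfra, Lum and Pdgfrb, from −2.21 ± 0.85 to −1.59 ± 0.21), errors being SDs over the 4 arrays here and below. The call of Dcn was lost without array 4 (adjusted p = 0.0634, limma), that of Twist1 in 5 of 13 alternative settings, without array 1, 2 or 4 among them (highest 0.105), and that of Lum in 8 of 13, without array 2, 3 or 4, with scaled arrays and with a robust prior among them (highest 0.137).

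Ligands of the TGF-beta superfamily are secreted dimers that bind pairs of type I and type II receptor kinases. The type I kinase phosphorylates SMAD proteins, SMAD2 and SMAD3 for TGF-beta and activin and SMAD1, SMAD5 and SMAD9 for BMPs, which then join SMAD4 and act on genes in the nucleus. Secreted antagonists such as noggin and gremlin hold BMPs away from their receptors, latent TGF-beta binding proteins store TGF-beta in the matrix, and inhibitory SMADs shut the signal off. In fibroblasts TGF-beta is known for its induction of matrix and contractile genes, and BMPs for their induction of Id genes.

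Among the 48 tested members 20 were lower and 11 higher in Mll1-/- fibroblasts (limma with a dye term, Benjamini-Hochberg adjusted p under 0.05 over all genes tested). As shares these are 41.7% lower and 22.9% higher, against 30.1% lower and 29.1% higher among all genes tested. At least 2-fold changes (absolute log2 ratio of 1 or more) were found for 11 members that fell, or 22.9%, against 8.06% of all genes, and for 3 members that rose, or 6.25%, against 6.3% of all genes. The median log2 ratio of the members was −0.16, and that of all genes was −0.00074. These shares were not tested against each other. Of the 31 members past the threshold, 21 kept their call and sign under all 13 alternative settings tried, namely Gdf6, Ltbp2, Gdf5, Grem1, Bmpr1a, Bmp7, Smad6, Id4, Id1, Tgfb2, Tgfb3, Bmp1, Fst, Ltbp1 and Id3, which fell, and Nog, Gdf1, Inhbb, Tgfbr2, Smad3 and Ltbp3, which rose.

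**Figure D1:**
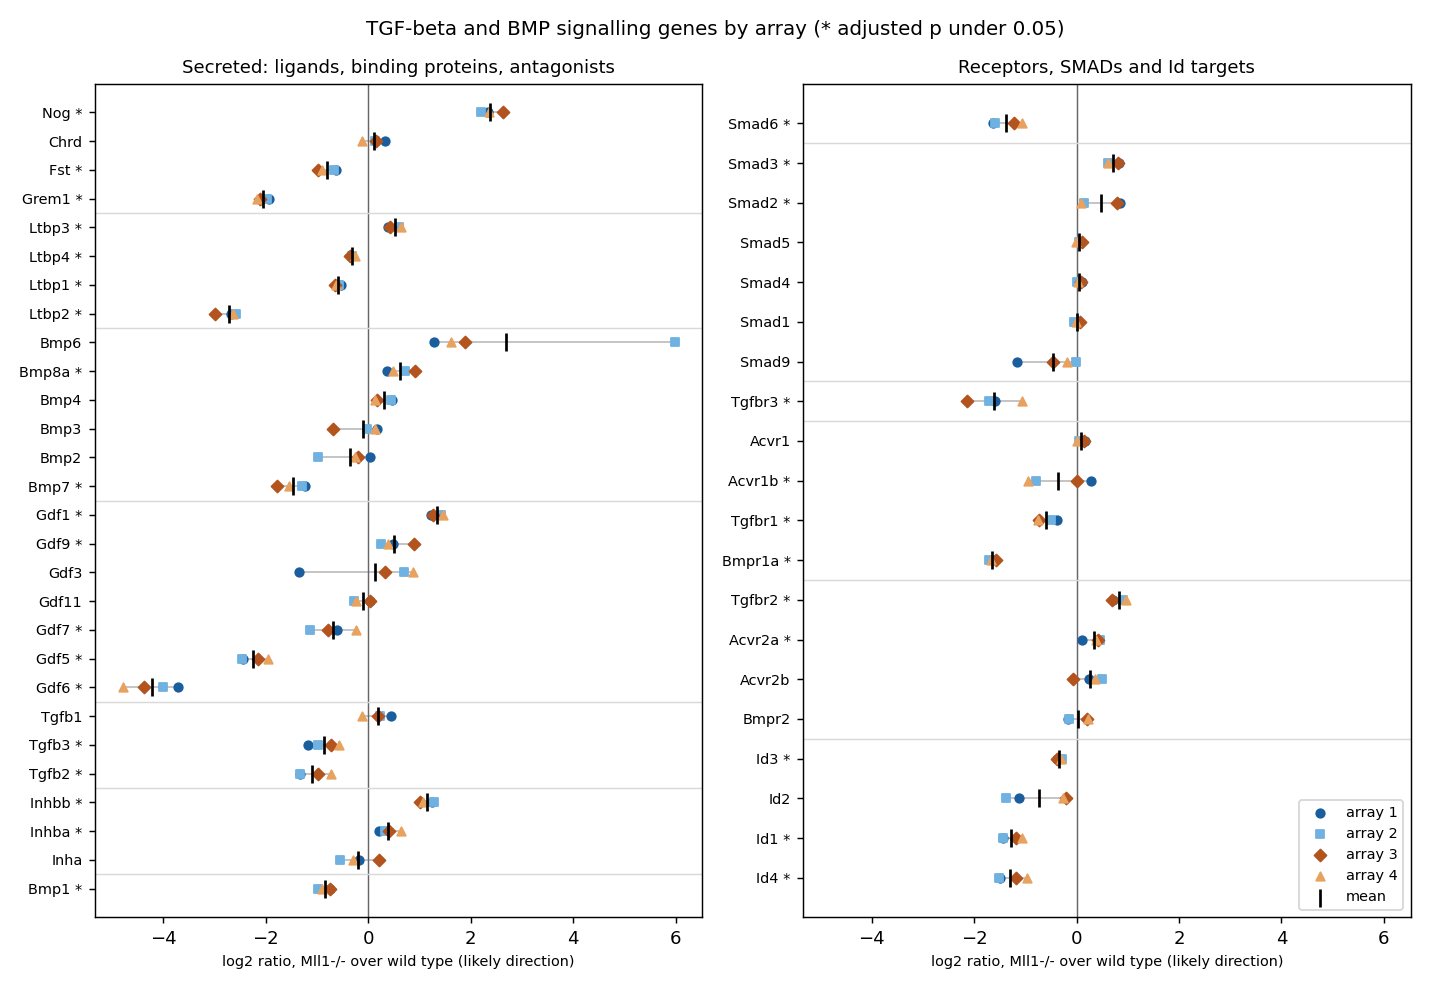
Log2 ratios (horizontal axes) of the 48 tested members on each of the 4 arrays, with the mean as a black bar and members grouped by role, secreted proteins on the left and receptors, SMADs and Id genes on the right. The Gdf6 points lie between −3.72 and −4.79, the Nog points between 2.19 and 2.63, and Bmp6 has 1 point at 5.98 apart from the others.

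Of the 3 TGF-beta ligands, Tgfb2 and Tgfb3 fell and Tgfb1 did not pass the test. Tgfb2 had log2 ratios of −1.33, −1.33, −0.98 and −0.72 on arrays 1 to 4, a 2.13-fold fall (−1.09 ± 0.30, limma adjusted p = 0.00868). Tgfb3 had −1.17, −0.97, −0.72 and −0.57, a 1.81-fold fall (−0.86 ± 0.27, adjusted p = 0.0110). Both genes were below 0 on every array and further below it on arrays 1 and 2 than on arrays 3 and 4. Tgfb1, the isoform most widely made by connective tissue, was read by 10 features and stood at 0.45, 0.22, 0.19 and −0.12 (adjusted p = 0.165), and it passed when arrays 1 with 4 and 2 with 3 were averaged (0.0244). Each mean of that averaging joins an array of 1 and 2 to an array of 3 and 4. A difference between those array pairs thus drops out of the spread, so a pass there is no further support. The 10 Tgfb1 features were close together on each array, with a median SD of 0.05 within an array against 0.23 between arrays. All 10 are annotated to the same transcript. Whether they are separate probes or copies of 1 probe is not known here, so their closeness does not show how far probes could differ.

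The BMP ligands went in different directions. Bmp7, a BMP of kidney, eye and skeleton, fell 2.76-fold, with array means of −1.24, −1.29, −1.78 and −1.54 over its 11 features (−1.46 ± 0.25, adjusted p = 0.00344). All 11 features had a mean below 0, from −2.96 to −1.10, and 1 of them stood apart at −1.89, −3.37, −3.04 and −3.57. Bmp8a rose to 0.36, 0.71, 0.91 and 0.48 (0.62 ± 0.24, adjusted p = 0.0224), a call lost in 4 settings, without array 2 or 4 among them and under a random block that joined array 1 to 2 and array 3 to 4 (adjusted p = 0.164). Bmp4, which acts early in mesoderm and limb, had 0.46, 0.45, 0.17 and 0.13 and missed the threshold (0.30 ± 0.18, adjusted p = 0.0604). It passed when the dye term was dropped (adjusted p = 0.0331) and when the array pairs 1 with 4 and 2 with 3 were averaged (0.00993). Its 10 features spanned 0.29 to 0.32 in their means, with a median SD of 0.04 within an array.

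Bmp6, a BMP known for iron regulation in the liver, was above 0 on every array but uneven, at 1.29, 5.98, 1.89 and 1.61 (2.69 ± 2.20, adjusted p = 0.0683). It was measured by 2 features. One read 1.04, 10.79, 2.10 and 1.82, and the other 1.54, 1.17, 1.69 and 1.40, so the high array mean came from a single reading on array 2. Tested by itself, the other feature was called higher (1.45, limma adjusted p = 0.00128), while the first did not pass (3.94, 0.137). The gene passed when array 1 was averaged with 2 and array 3 with 4 (0.0429) and, at 3.79, without array 4. In that last fit array 2 was the only array with the Mll1-/- RNA in Cy3. The dye term then fits array 2 exactly, so its high reading adds nothing to the spread and the pass is no support. Without array 2 the gene was at 1.60 (adjusted p = 0.0236). Bmp2 was at 0.02, −0.98, −0.20 and −0.26 (−0.36 ± 0.44, adjusted p = 0.125) and Bmp3 at 0.17, −0.03, −0.69 and 0.13 (adjusted p = 0.642). For Bmp2 this rests on 1 of 10 features, since the other 9 were blank on at least 1 array and 19 of its 40 readings were missing, and it passed without array 4 (adjusted p = 0.0370).

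Of the 7 growth and differentiation factors tested 2 rose and 3 fell, and Gdf6 fell further than any other member. Gdf6, a BMP-like ligand of joint, skull and eye development, stood at −3.72, −4.01, −4.38 and −4.79, an 18.7-fold fall (−4.23 ± 0.47, adjusted p = 0.00141), and was the 64th lowest of the 14222 genes. Its relative Gdf5, which is needed for joint formation, stood at −2.44, −2.47, −2.16 and −1.95, a 4.78-fold fall (−2.26 ± 0.25, adjusted p = 0.00167). Gdf7, the third member of that subfamily, was at −0.61, −1.14, −0.79 and −0.23 (−0.69 ± 0.38, adjusted p = 0.0450). All 3 were below 0 on every array, but the Gdf7 call was lost in 5 of the 13 settings, without array 1 or 3 among them (highest adjusted p = 0.241).

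Gdf1, a ligand of left-right patterning, rose 2.53-fold, with 1.23, 1.43, 1.25 and 1.45 on the arrays (1.34 ± 0.11, adjusted p = 0.000644). In the mouse Gdf1 can share a transcript with the ceramide synthase gene Cers1, and which of them the feature reads was not tested. Gdf9, an oocyte factor, rose to 0.49, 0.25, 0.89 and 0.38 (0.50 ± 0.28, adjusted p = 0.0176), a call lost without array 2 (adjusted p = 0.0653) or array 4 (0.0780) and under that random block (0.0522). Gdf11, a patterning factor of the body axis, was at −0.11 ± 0.17 (adjusted p = 0.0703) and passed under the averaging named for Tgfb1 and Bmp4 (0.0440). Gdf3 was at −1.34 on array 1 and at 0.34 to 0.87 on the others (0.14 ± 1.01, adjusted p = 0.744), and without array 1 it was at 0.56 (adjusted p = 0.0295).

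Both beta subunits of activin rose, and the inhibin alpha subunit did not pass the test. Inhbb, the subunit of activin B, stood at 1.24, 1.28, 1.01 and 1.07, a 2.22-fold rise (1.15 ± 0.13, adjusted p = 0.00205). Inhba, the subunit of activin A, stood at 0.21, 0.33, 0.39 and 0.64 (0.39 ± 0.18, adjusted p = 0.0227). That call was lost without array 1, 3 or 4 and when array 1 was averaged with 2 and array 3 with 4 (adjusted p from 0.0639 to 0.0917). Inha, whose product turns a beta subunit into inhibin, was at −0.17, −0.55, 0.22 and −0.31 by its complete feature (adjusted p = 0.155, and 0.0365 under the same averaging as for Tgfb1), while its other feature read 0.69, 1.31 and 2.05 and was blank on array 1.

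Of the 5 genes for proteins that process or store the ligands 4 fell. Ltbp2, a microfibril protein that unlike its relatives is not known to bind latent TGF-beta, fell 6.61-fold, with −2.67, −2.58, −3.001 and −2.65 (−2.72 ± 0.19, adjusted p = 0.00066). Ltbp1, which holds latent TGF-beta in the matrix, fell 1.51-fold (−0.60 ± 0.06, adjusted p = 0.00284), and Ltbp4, of elastic fibres, fell 1.25-fold (−0.32 ± 0.04, adjusted p = 0.00676). Ltbp3 rose 1.43-fold (0.51 ± 0.12, adjusted p = 0.00270). The 4 binding proteins were on the same side of 0 on every array. The Ltbp4 call was lost by a small margin in 4 settings, without array 1, 2 or 3 among them (highest adjusted p = 0.0545). Bmp1 is no ligand but a metalloproteinase that cleaves procollagen and chordin. Its array values were −0.76, −0.98, −0.76 and −0.90, a 1.80-fold fall (−0.85 ± 0.11, adjusted p = 0.00132).

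Of the 4 secreted antagonists 1 rose and 2 fell. Nog, the BMP antagonist noggin, rose 5.21-fold, with 2.34, 2.19, 2.63 and 2.35 (2.38 ± 0.18, adjusted p = 0.000793). Grem1, the BMP antagonist gremlin of limb and gut mesenchyme, fell 4.14-fold, with −1.95, −1.97, −2.11 and −2.17 (−2.05 ± 0.11, adjusted p = 0.00076). Neither gene had an array near 0, and their ranges across arrays were narrow beside the differences. Fst, the activin-binding protein follistatin, stood at −0.64, −0.68, −0.98 and −0.90, a 1.74-fold fall (−0.80 ± 0.17, adjusted p = 0.00589). Chrd, the BMP antagonist chordin, was at 0.12 ± 0.18 (adjusted p = 0.231).

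Among the receptors, the BMP type I receptor Bmpr1a fell most. Its array means were −1.61, −1.71, −1.57 and −1.67, a 3.12-fold fall (−1.64 ± 0.06, adjusted p = 0.000529). Its 2 features both fell but by different amounts, with means of −2.09 and −1.20. The TGF-beta type I receptor Tgfbr1 fell 1.51-fold (−0.59 ± 0.18, adjusted p = 0.0129), a call just lost without array 4 (adjusted p = 0.0556). Acvr1b, a type I receptor for activin, was called lower (−0.36 ± 0.60, adjusted p = 0.0225) although its arrays were at 0.28, −0.79, 0.01 and −0.96. It was above 0 where the Mll1-/- RNA carried Cy5 and below 0 where it carried Cy3, and the call was lost when the dye term was dropped (adjusted p = 0.265) or when array 2, 3 or 4 was left out (highest 0.0954). Acvr1, the BMP receptor ALK2, was at 0.09 ± 0.08 (adjusted p = 0.111).

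Of the 4 type II receptors, 2 rose and 2 did not pass the test. Tgfbr2, the TGF-beta type II receptor, stood at 0.72, 0.91, 0.68 and 0.97, a 1.77-fold rise (0.82 ± 0.14, adjusted p = 0.00135). Its 2 complete features had means of 1.18 and 0.47, and with each feature tested by itself the gene's value was the lower one. Acvr2a, a type II receptor of activin and BMPs, was at 0.11, 0.45, 0.42 and 0.38 (0.34 ± 0.16, adjusted p = 0.0256), but its 2 complete features read 0.67 and 0.01 and the call was lost in 7 of the 13 settings, without array 2, 3 or 4 among them. Acvr2b was at 0.26 ± 0.25 (adjusted p = 0.0548, and 0.0278 under the same averaging as for Tgfb1) and Bmpr2, the BMP type II receptor, at 0.03 ± 0.21 (adjusted p = 0.838). Tgfbr3, the co-receptor betaglycan, which presents TGF-beta2 to the type II receptor, fell 3.07-fold, with −1.58, −1.70, −2.13 and −1.06 (−1.62 ± 0.44, adjusted p = 0.00542), and lost the call only under the random block (adjusted p = 0.0540).

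Of the 6 signal-carrying SMADs 2 rose and 4 did not pass the test. Smad3, which carries TGF-beta and activin signals, stood at 0.84, 0.62, 0.81 and 0.61, a 1.65-fold rise (0.72 ± 0.12, adjusted p = 0.00149), and all 3 of its features were above 0, from 0.52 to 0.86. Smad2, its partner, was called higher (0.47 ± 0.41, adjusted p = 0.00353), with 0.85 and 0.80 where the Mll1-/- RNA carried Cy5 and 0.15 and 0.08 where it carried Cy3. That call was lost without the dye term (adjusted p = 0.0677). Smad1 (0.01 ± 0.05), Smad5 (0.05 ± 0.05) and the common partner Smad4 (0.05 ± 0.04) had narrow spreads between arrays around values near 0 and adjusted p-values from 0.285 to 0.768. Single Smad5 features were called in opposite directions (−0.32 and 0.30, limma adjusted p = 0.0245 and 0.0229). For Smad4, 1 feature was called higher by itself (0.17, 0.0273). Smad9 was at −1.15, −0.02, −0.46 and −0.19 (adjusted p = 0.0680) and passed without array 3 (0.0249).

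The inhibitory Smad6, a known target of BMP signalling that feeds back on it, stood at −1.63, −1.60, −1.21 and −1.07, a 2.60-fold fall (−1.38 ± 0.28, adjusted p = 0.00485). The Id genes encode helix-loop-helix proteins that bind other such factors and keep them off DNA. Id1 stood at −1.44, −1.44, −1.19 and −1.06, a 2.43-fold fall (−1.28 ± 0.19, adjusted p = 0.00285). Id4 stood at −1.50, −1.52, −1.18 and −0.97, a 2.45-fold fall (−1.29 ± 0.27, adjusted p = 0.00499). Smad6, Id1 and Id4 thus shared a shape, at or below −0.97 on every array and lower on arrays 1 and 2 than on arrays 3 and 4. That order of the arrays was not particular to them, since Gdf5, Tgfb2, Tgfb3 and Kmt2a had it too. Id3 fell by a small and even amount, at −0.38, −0.29, −0.38 and −0.30 (−0.34 ± 0.05, adjusted p = 0.00555). Id2 did not pass (−0.74 ± 0.59, adjusted p = 0.101), and stood at −1.12 and −1.38 on arrays 1 and 2 and at −0.21 and −0.26 on arrays 3 and 4. Its 3 features repeated this gap. Id2 passed when the pairs 1 with 4 and 2 with 3 were averaged (limma adjusted p = 0.00875). That averaging joins an array from each side of the gap. The gap thus drops out of the spread, and the pass is no support for a fall.

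**Figure D2:**
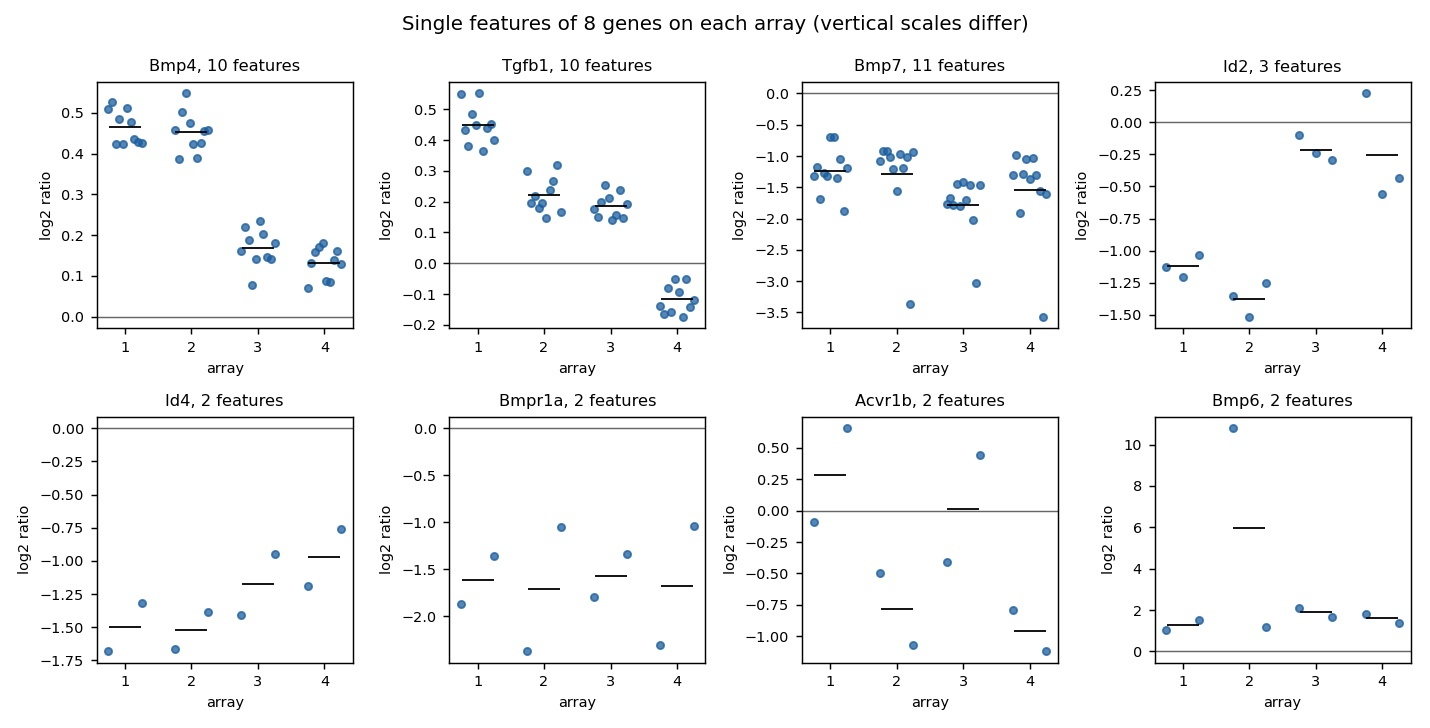
Log2 ratios (vertical axes, with different scales) of single complete features on each array for 8 members, with the mean of a gene's features on an array as a black dash. The 10 features each of Bmp4 and Tgfb1 lie close together on every array, 1 of 11 Bmp7 features is the lowest on every array, and 1 Bmp6 feature reads 10.79 on array 2.

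The promoters of members that fell or rose are printed for 4 genes that fell (Id3, Id4, Smad6 and Bmpr1a) and 2 that rose (Tgfbr2 and Smad3), chosen after their values were seen. They are the 250 bases before the annotated start, from RefSeq on build GRCm38.p6, and capitals mark 2 sequence motifs known for SMAD proteins, GTCT (AGAC on the other strand) and the palindrome GGCGCC. The 2 motifs did not overlap, and a match describes the letters only.
Id3: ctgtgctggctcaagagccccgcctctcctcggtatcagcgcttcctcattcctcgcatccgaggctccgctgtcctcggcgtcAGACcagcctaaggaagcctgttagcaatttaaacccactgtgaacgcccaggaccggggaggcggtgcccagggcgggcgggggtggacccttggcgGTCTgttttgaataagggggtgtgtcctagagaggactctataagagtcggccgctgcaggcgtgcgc
Id4: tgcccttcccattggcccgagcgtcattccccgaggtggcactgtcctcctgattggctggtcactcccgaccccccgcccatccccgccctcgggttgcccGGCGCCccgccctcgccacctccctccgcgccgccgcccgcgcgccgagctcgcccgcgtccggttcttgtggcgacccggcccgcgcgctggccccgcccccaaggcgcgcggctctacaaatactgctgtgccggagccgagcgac
Smad6: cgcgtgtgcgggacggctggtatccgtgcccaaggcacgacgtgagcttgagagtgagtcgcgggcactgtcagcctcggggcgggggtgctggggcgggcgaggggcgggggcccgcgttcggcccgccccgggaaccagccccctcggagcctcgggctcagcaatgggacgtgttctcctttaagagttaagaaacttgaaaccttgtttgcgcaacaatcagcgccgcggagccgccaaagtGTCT
Bmpr1a: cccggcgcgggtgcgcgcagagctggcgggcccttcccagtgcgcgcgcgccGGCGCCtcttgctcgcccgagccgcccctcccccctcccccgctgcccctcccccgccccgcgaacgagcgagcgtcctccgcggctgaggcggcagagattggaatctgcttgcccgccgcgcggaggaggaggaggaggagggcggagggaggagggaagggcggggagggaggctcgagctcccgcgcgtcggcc
Tgfbr2: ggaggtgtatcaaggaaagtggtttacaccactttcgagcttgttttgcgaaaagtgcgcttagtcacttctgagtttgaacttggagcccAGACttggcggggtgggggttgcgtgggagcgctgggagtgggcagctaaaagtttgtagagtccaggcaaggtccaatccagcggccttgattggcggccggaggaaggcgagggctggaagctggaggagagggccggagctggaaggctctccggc
Smad3: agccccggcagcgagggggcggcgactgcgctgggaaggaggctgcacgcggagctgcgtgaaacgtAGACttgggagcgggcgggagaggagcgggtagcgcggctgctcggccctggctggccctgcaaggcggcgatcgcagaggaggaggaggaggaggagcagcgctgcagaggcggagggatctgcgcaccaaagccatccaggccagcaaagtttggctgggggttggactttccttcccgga

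These windows lie at chr4:136143572-136143821, plus strand (Id3), chr13:48260866-48261115, plus strand (Id4), chr9:64022060-64022309, minus strand (Smad6), chr14:34502547-34502796, minus strand (Bmpr1a), chr9:116175364-116175613, minus strand (Tgfbr2) and chr9:63757995-63758244, minus strand (Smad3). A promoter was matched by gene ID for 33 of the 48 tested members. GTCT was found on either strand in 25 of the 33, or 75.8%, against 83.0% of the 27025 promoters of the same length in the table and 80.95% of those of the genes tested. By call, it was in 7 of the 12 promoters of members that fell, in 8 of the 8 of members that rose and in 10 of the 13 of members that did not pass. Among the genes tested, GTCT was in 81.29% of those that fell and in 81.29% of those that rose. GGCGCC was found in 9 of the 33, or 27.3%, against 9.54% of all promoters and 15.6% of those of the genes tested. It was in 4 of the 12 promoters of members that fell, Bmpr1a and Id4 among them, in 1 of the 8 of members that rose and in 4 of the 13 of members that did not pass. Among the genes tested it was in 16.4% of those that fell and in 17.1% of those that rose. The members' promoters held a median of 22 CpG pairs in 250 bases and a median GC content of 66%, against 14 pairs and 58.8% over the genes tested. None of these shares was tested.

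Other genes with a role in the pathway were divided too. Of 51 listed, 39 were tested, of which 9 rose and 12 fell, or 23.1% and 30.8%, close to the shares of all genes, with a median log2 ratio of −0.05. Nrros, a protein that anchors latent TGF-beta on cells, fell furthest (−3.70 ± 0.15, adjusted p = 0.000465), and the proteoglycan decorin, Dcn, which can bind TGF-beta, fell 4.63-fold (−2.21 ± 0.85). Lefty1 (−1.29 ± 0.74), an antagonist of Nodal, and Vasn (from −1.10 to −0.95 on the arrays), which binds TGF-beta, also fell, but the Lefty1 call was lost in 9 of 13 settings, among them without any 1 of the arrays. Skil, a nuclear inhibitor of SMAD activity that TGF-beta induces, rose 3.45-fold (1.78 ± 0.19, adjusted p = 0.00171). Pmepa1, another feedback inhibitor, rose 2.54-fold (1.34 ± 0.61), with 0.69 and 0.96 on arrays 1 and 2 and 1.94 and 1.78 on arrays 3 and 4, and Itgav, an integrin subunit that activates latent TGF-beta, rose 2.02-fold (1.01 ± 0.43). The Pmepa1 call was lost when array 1 was averaged with 2 and array 3 with 4, or when array 2, 3 or 4 was left out (highest adjusted p = 0.0949) and the Itgav call without array 3 or 4 (0.0718). Bmper, a modulator of BMP signalling, rose 2.01-fold (1.01 ± 0.18, adjusted p = 0.00252).

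Genes known as targets of TGF-beta rose more often than they fell. Of 22 tested, 14 rose and 4 fell, or 63.6% and 18.2%, against 29.1% and 30.1% of all genes, and their median log2 ratio was 0.77. The largest rises were those of the contractile genes Cnn1 (4.29 ± 0.23), Tagln (3.92 ± 0.16) and Acta2 (2.38 ± 0.11) and of the collagen Col3a1 (2.27 ± 0.53). Ccn2, the connective tissue growth factor, named here after its value was seen, rose 4.32-fold (2.11 ± 0.14, adjusted p = 0.000573). Tgfbi, a matrix protein named for its induction by TGF-beta, went the other way and fell 57.6-fold (−5.85 ± 0.30, adjusted p = 0.000426). The transcription factor Snai2 (−0.99 ± 0.14), the collagen cross-linker Lox (−0.79 ± 0.40) and Junb (−0.32 ± 0.17) also fell, the Junb call being lost in 6 of 13 settings, among them without any 1 of the arrays. Of the 6 smooth muscle markers 4 rose and Des fell (−0.31 ± 0.26, lost in 5 settings, without array 1, 3 or 4 among them), from 2.38 for Acta2 to 4.80 ± 0.20 for Myl9 among those that rose. The smooth muscle marker Myh11 did not pass (0.26 ± 0.38, limma adjusted p = 0.292). Cnn1, Tagln and Acta2 belong to both lists, and the part that cells of this type play in the rise was not tested. Since these lists were drawn up with earlier results of these data known, their direction is no independent evidence.

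Of 16 tested genes known as targets of BMP, 5 rose and 6 fell, or 31.2% and 37.5%, against 29.1% and 30.1% of all genes. Of the 8 that are members, Id1, Id3, Id4, Smad6 and Grem1 fell, Nog rose, and Id2 and Smad9 did not pass. Of the 8 others, 4 rose and 1 fell. The homeobox genes Msx2 (6.10 ± 0.79) and Msx1 (1.19 ± 0.22), alkaline phosphatase, Alpl (2.12 ± 1.09), and the repressor gene Hey1 (1.35 ± 0.11) rose, and the transcription factor Atoh8 fell 4.75-fold (−2.25 ± 0.29, adjusted p = 0.00188). The Alpl call was lost without array 2 (adjusted p = 0.0945) or array 4 (0.0762) and under the random block (0.0876).

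**Figure D3:**
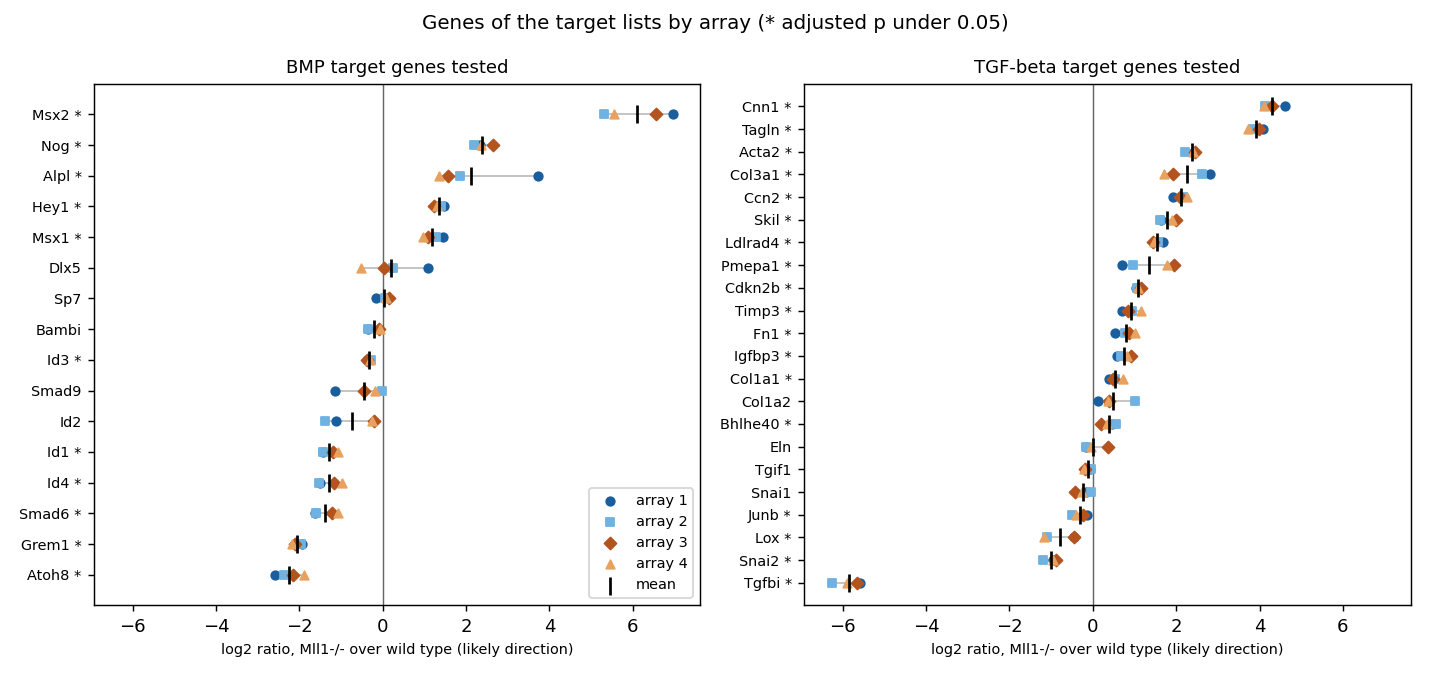
Log2 ratios (horizontal axes) of the tested genes of the BMP target list (left) and the TGF-beta target list (right) on each of the 4 arrays, with the mean as a black bar. On the left Id1, Id4, Smad6, Grem1 and Atoh8 lie below 0 on all arrays and Msx2 and Nog above 2, and on the right 14 of 22 genes rose while Tgfbi lies at −5.59 or below.

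Markers of other cell types were few among the tested genes. Of 6 endothelial markers 3 were tested, of which Kdr rose (1.10 ± 0.20) and Cdh5 was called lower (−0.39 ± 0.96). Cdh5 read 0.42, −1.35, 0.46 and −1.09, above 0 where the Mll1-/- RNA carried Cy5 and below 0 where it carried Cy3. That call was lost in 5 settings, without array 1, 2 or 3 among them and without the dye term (limma adjusted p = 0.433). Of 7 macrophage and blood markers 2 were tested, of which Cd14 fell (−3.78 ± 0.12) and Ptprc did not pass (0.57 ± 1.55). Of 7 epithelial markers 4 were tested, of which Krt5 fell (−0.42 ± 0.04). Whether such cells contribute to the members' values was not tested.

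The arrays did not differ evenly among the members. Each array's member features numbered 103 to 115 with a value out of 121. The difference between the mean of arrays 1 and 2 and the mean of arrays 3 and 4 had a median size of 0.23 among the members and of 0.14 among all genes, and the difference between dye orientations 0.17 and 0.17. The widest differences between the array pairs were those of Bmp6 (1.88), Id2 (−1.01), Gdf3 (−0.93) and Gdf6 (0.72), each given as arrays 1 and 2 minus arrays 3 and 4. The labels do not say that arrays 1 and 2, or 3 and 4, share anything. With each of these pairs averaged to 1 value, 18 members fell and 10 rose, against 20 and 11 with the 4 arrays apart. Among all 14222 genes tested, 2923 fell and 2690 rose with the pairs averaged, against 4275 and 4140 with the 4 arrays apart.

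**Figure D4:**
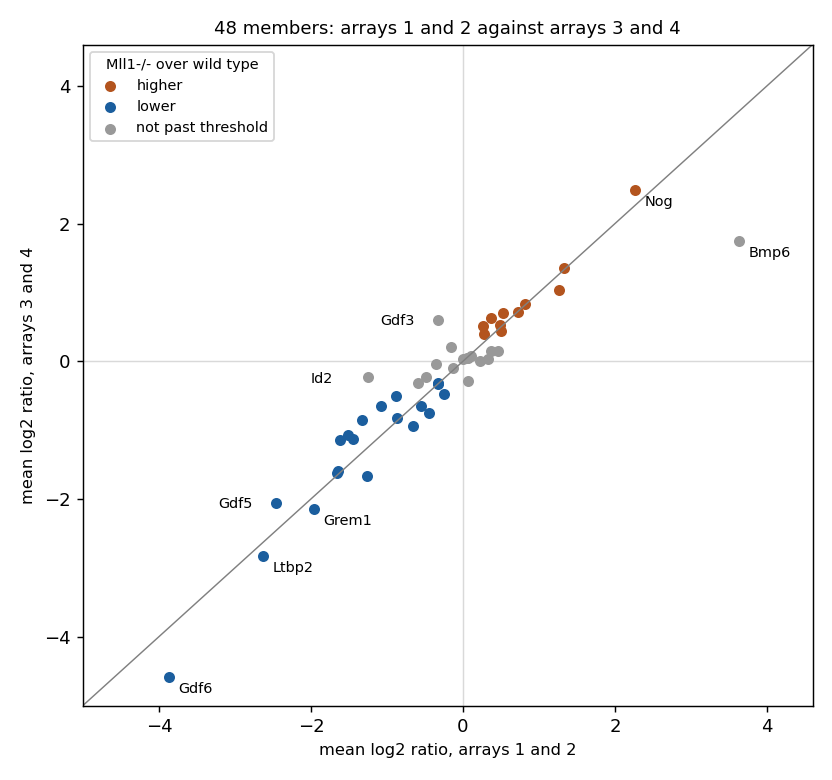
Mean log2 ratio of the 48 tested members on arrays 1 and 2 (horizontal axis) and on arrays 3 and 4 (vertical axis), coloured by call, with the line of equality. Most members lie near the line, and Bmp6, Id2 and Gdf3 lie furthest from it.

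Of the 121 features of the members, 99 had a value on all arrays, 18 were blank on 1 to 3 arrays and 4 were blank on all. The 7 members without a complete feature were not tested. The BMP type I receptor Bmpr1b read 3.47, 2.77 and 0.26 on arrays 1, 2 and 4 and was blank on array 3. Bmp5 had 3 readings on its 3 features, 0.23 and −1.46 on array 4 and 0.17 on array 2. Bmp10 (−0.64) and Gdf2 (1.27), ligands of the endothelial receptor ALK1, had a reading on array 4 only, and Bmp8b (0.58) on array 1 only. Bmp15 and Gdf10 had none. What a blank stands for is not given in the sources used here, so these genes are neither called absent nor unchanged. Some families are incomplete for want of a singly named feature. Such a feature existed for 1 of 2 inhibitory SMADs listed, 4 of 5 antagonists and 9 of 10 growth and differentiation factors.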

How the data were processed

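Per the labels' protocols, total RNA of both genotypes was labelled with 2 dyes and hybridised together to Agilent mouse arrays, 4 in all, with dyes swapped on 2. Agilent Feature Extraction 10.1.1 is listed in the submitters' processing notes. The authors deposited a ratio for each feature and array, taken here to be a log2 ratio. The sources used here give neither its normalization, log base and direction nor the meaning of blanks, and no intensities were used, so that precision is limited by how few the arrays are.

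The platform's annotation supplied gene names (33653 of 45018 features with 1 symbol), and features with a value on all arrays were averaged per gene. Bmp2k, a kinase whose symbol runs on after the number, was not counted as a member. Genotype was tested over 14222 genes with limma 3.58.1 in R 4.3.3 (lmFit, eBayes, gene-specific dye term, 2 residual degrees of freedom), with Benjamini-Hochberg adjustment over all of them and a threshold of 0.05. The script was tested on simulated data whose errors were drawn separately for each array. That test does not cover arrays that vary together in pairs. Array values are given for members at least 2-fold changed and for those set beside them. From each other list at most 4 risen and 4 fallen genes were named, by size, and Ccn2 was added after its value was seen. Members and lists were chosen with earlier results of these data known. The 13 alternatives concern the dye term, centring, scaling, blanks, features, the variance prior, array pairs and single arrays left out. For the random block, the correlation within pairs (0.73) was pooled over genes in closed form, since limma's own estimate needs more arrays beside a dye term.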

Additional observations from a re-analysis of the deposited data

Results flagged for a closer look

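Bmp6 on array 2 (5.98) stood apart from the other 3 arrays, which lay between 1.29 and 1.89, by a gap of 0.871 of the whole range, above the critical value of Dixon's test. It was the only one of the 48 tested members with such an array, and chance alone flags about 5% of groups of 4. The value comes from 1 of 2 features, which read 10.79 on that array, while the other feature read 1.17 there. The cause of the high reading was not tested.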

How the results depend on the processing

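The counts of members past the threshold stayed within 1.5 times under the 13 alternatives, from 8 to 12 higher and from 18 to 22 lower. Among all genes, the count higher was 2690 with arrays 1 and 2, and 3 and 4, averaged, and from 2532 to 2860 with single arrays left out, against 4140. The averaged count and those without array 1 (2665) and without array 2 (2532) differed from 4140 by over 1.5 times. The count of all genes lower was 2923 with those pairs averaged and from 2879 to 3005 with single arrays left out, against 4275. Centring, scaling and the robust prior changed no member's call. Of the 31 members past the threshold 10 lost the call in at least 1 setting and none changed sign. Of the 17 that did not pass, 10 passed in at least 1 setting. Of these, 6 passed when arrays 1 with 4 and 2 with 3 were averaged. That setting takes the difference of arrays 1 and 2 from arrays 3 and 4 out of the spread. Bmp2, Gdf3 and Smad9 passed only with an array left out, where the array alone in its dye orientation adds nothing to the spread. The count is therefore no support for those members. Signs turned only for members that had not passed. Bmp3 ran from −0.32 to 0.11, Gdf3 from −0.28 to 0.56 and Bmpr2 from −0.063 to 0.12 with single arrays left out. Tested by single features, Bmpr2 was at −0.072 and Smad4 at −0.066, and Inha was at 0.38 with features valued on 3 arrays kept, which adds its second feature. The causes of these shifts were not tested. Of 34 genes named from the other lists, 24 kept their call throughout. All arrays form 1 group, so no groups share replicate numbers. Signal over background is unknown, so large ratios may rest on a channel close to background.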

Other observations

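Genes read by several features showed how far features can differ. Of the 22 members with more than 1 complete feature, Bmpr2, Smad4 and Smad5 had features with means on both sides of 0. Bmpr2 had feature means from −0.16 to 0.31 and Smad5 from −0.32 to 0.30, so that a mean near 0 for Smad5 (0.05 ± 0.05) joined features that did not read alike. The Bmpr2 feature at 0.31 was called higher by itself (limma adjusted p = 0.00892). For Bmp4, Tgfb1 and Id1, the features differed less within an array (median SDs of 0.04, 0.05 and 0.01) than the arrays differed from each other (0.18, 0.23 and 0.19). Whether features of 1 gene are separate probes or copies of 1 probe is not known here, and a gene's mean weighs them all equally.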
